A study of Mus musculus with 48 samples.

Results

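D6 is a mouse induced pluripotent stem cell (iPSC) line that the labels name only by this code. The study's text describes an iPSC line D6s4B5, in which a single *piggyBac* copy of the doxycycline-inducible MKOS cassette lies in an intron of *Sp3*, and D6 may be short for it, but no source used here says so. D6 was sequenced as 2 libraries among the 48 of the series, and these were the columns named D6 in the deposited table. They were compared with 4 libraries of established iPSC clones kept without doxycycline, 2 each of MKOS iPSCs -dox and OKMS iPSCs -dox, and with 4 libraries of the same kinds of iPSCs labeled 2i. The last reference was made of 8 embryonic stem cell (ESC) libraries, 2 each of E14, TNG ESCS, TNG MKOS ESCs, and TNG OKMS ESCs. MKOS and OKMS are polycistronic cassettes that carry *Myc*, *Klf4*, *Oct4*, and *Sox2* in the order their names give. The reference iPSCs came from fibroblasts of chimeric embryos made with TNG MKOS or TNG OKMS ESCs, in which the cassette had been targeted into that *Sp3* locus, and they therefore also carry the GFP gene that TNG cells have in the *Nanog* locus. The label E14 names no genotype, and the study's text lists wild-type ESCs among the sequenced cells without naming their line. The methods state medium with serum and LIF for ESCs and iPSCs, and the label 2i marks the libraries of the iPSCs 2i. D6 is 1 line, its label names neither a medium nor doxycycline, and the labels do not say whether the 2 libraries are separate cultures, so p-values measure the spread between libraries, which may be technical. The line, its culture, and its parental cells differ from the references together and cannot be told apart. The comparison asks how this line differs from the iPSCs of the targeted system.

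Naive pluripotent cells of the mouse are held by a network of transcription factors around *Pou5f1*, *Sox2*, and *Nanog*, which LIF maintains through STAT3. FGF signaling through the kinase ERK pushes these cells toward differentiation, and 2i medium, which holds inhibitors of MEK and GSK3, blocks that route and lowers the expression of ERK targets and of the de novo DNA methyltransferases. Imprinted genes, of which *Meg3* in the *Dlk1*-*Dio3* domain is one example, are read from the allele of a single parent and are known to vary among iPSC lines. Cultured pluripotent lines are also known to gain or lose chromosomes or parts of them.

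STRT sequencing reads the 5′ end of a transcript, so the level of a gene is read at its start. The 250 bases before the RefSeq start are shown for 3 genes on which the results turn, all on the plus strand of GRCm38.p6. *Hprt* (chrX:52987828-52988077) was close to silent in every reference, *Nanog* (chr6:122707239-122707488) lies in a raised stretch of chromosome 6, and *Meg3* (chr12:109540746-109540995) is the imprinted gene with the lowest FDR of its domain. Capitals mark CG pairs in *Hprt* and *Meg3*, and in *Nanog* they mark TTTGCAT or its reverse complement, which is part of the octamer that POU factors such as OCT4 bind.
Hprt: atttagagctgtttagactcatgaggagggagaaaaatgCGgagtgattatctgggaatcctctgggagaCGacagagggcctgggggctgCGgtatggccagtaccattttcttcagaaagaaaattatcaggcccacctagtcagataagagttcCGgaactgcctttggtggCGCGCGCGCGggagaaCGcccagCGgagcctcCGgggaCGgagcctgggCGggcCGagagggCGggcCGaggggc
Nanog: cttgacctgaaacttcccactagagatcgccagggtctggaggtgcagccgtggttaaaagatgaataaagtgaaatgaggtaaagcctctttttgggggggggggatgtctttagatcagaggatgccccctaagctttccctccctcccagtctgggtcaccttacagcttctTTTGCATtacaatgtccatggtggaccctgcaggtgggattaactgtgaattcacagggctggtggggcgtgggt
Meg3: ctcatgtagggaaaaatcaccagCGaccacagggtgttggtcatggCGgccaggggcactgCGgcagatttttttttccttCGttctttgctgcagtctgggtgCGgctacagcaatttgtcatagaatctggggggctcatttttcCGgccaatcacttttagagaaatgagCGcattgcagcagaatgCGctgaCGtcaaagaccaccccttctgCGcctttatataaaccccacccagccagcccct
The *Hprt* stretch holds 17 CG pairs and that of *Meg3* 10, against a median of 6 over 32851 promoters of this length, 23.5% and 37.8% of which hold as many. The letters marked in *Nanog* occur on either strand in 4.12% of promoters. These are descriptions of the sequence and say nothing of which factors were bound.

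The D6 libraries had 9654796 and 11418082 reads on transcripts outside the Y chromosome, compared with 4848232 to 9642999 in the iPSCs -dox, 4545757 to 5691326 in the iPSCs 2i, and 5961944 to 11471729 in the ESCs. Mitochondrial genes took 6.69% and 8.66% of the reads in D6 and 6.16% to 8.21% in the iPSCs -dox. All levels below are counts of reads per 1000000 (CPM), scaled by TMM factors, and FDR is the Benjamini-Hochberg adjusted p of edgeR's quasi-likelihood test over all genes tested. Pluripotency markers were present throughout: *Pou5f1* had 807 and 532 CPM in D6, 978 and 984 in MKOS iPSCs -dox, and 656 and 910.0 in OKMS iPSCs -dox, and *Sox2* had 345 and 334 CPM in D6, 358 and 225 in MKOS iPSCs -dox, and 203 and 277 in OKMS iPSCs -dox. For both genes D6 overlapped the references, and neither gene passed the test (FDR 0.776 and 0.819). *Sp3*, the gene that carries the cassette in the reference iPSCs, had 23.3 and 25.7 CPM in D6, 28.1 and 25.7 in MKOS iPSCs -dox, and 8.32 and 23.8 in OKMS iPSCs -dox (FDR 0.899). The summed level of 8 fibroblast markers was 16.2 and 17.0 CPM in D6, 8.50 to 32.3 in the iPSCs -dox, and 3182 to 5014 in mouse embryonic fibroblasts (MEFs), and *Xist*, which marks an inactive X chromosome, was at 0 and 0.580 CPM in D6. The 8 pluripotency markers summed to 24559 and 26151 CPM in D6, 17589 to 20001 in the iPSCs -dox, and 3.84 to 16.4 in MEFs. Most of the sum was *Dppa5a*, with a mean of 22797 CPM in D6 and 15849.5 in the iPSCs -dox, which did not pass (FDR 0.717). With fibroblast markers that low and pluripotency markers that high, the profile was that of a pluripotent line. In bulk RNA, fewer cells of a type and less RNA per cell cannot be told apart.

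Against the 4 iPSC -dox libraries, 98 genes were higher and 92 lower in D6 at an FDR of at most 0.05, which is 1.22% of the 15622 genes tested (0.627% higher, 0.589% lower). The difference was at least 2-fold for 165 of the 190. Over all tested genes, 11.5% had both D6 libraries above all 4 references and 7.92% had both below. MKOS and OKMS iPSCs -dox compared with each other gave 0 genes with edgeR, with 1155 at an unadjusted p under 0.05, although DESeq2 called 32 there. That contrast sets 2 libraries against 2 and has less power than the contrast of 2 against 4. In contrasts of the same size, D6 against MKOS or OKMS iPSCs -dox alone gave 130 and 94 calls. The count for D6 depended on single libraries, being 27 and 44 without D6 replicate 1 or 2, 93 without MKOS iPSCs -dox replicate 2, and 116 without OKMS iPSCs -dox replicate 1. Over whole profiles D6 was about as far from the iPSC -dox libraries as the MKOS and OKMS clones were from each other. Its distance to the iPSC -dox libraries, 1 minus the Pearson correlation of variance-stabilized counts of 19739 genes, was 0.0368 to 0.0565, and the distance between MKOS and OKMS iPSCs -dox was 0.0344 to 0.0524. Replicates of a group were up to as far apart, with 0.0216 between the D6 libraries, 0.0336 between those of MKOS iPSCs -dox, and 0.0524 between those of OKMS iPSCs -dox. The plot of fold change against level shows the genes that do differ.

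**Figure D1:**
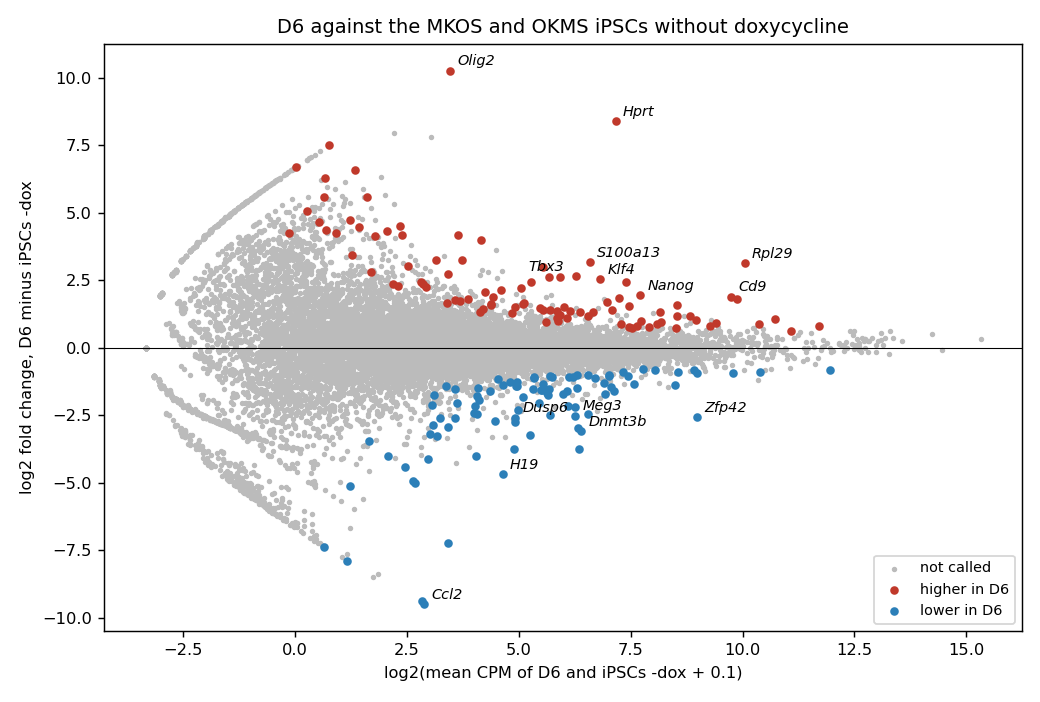
Each point is 1 of the 15622 genes tested, with the log2 of its mean CPM in D6 and the iPSCs -dox (plus 0.1) on the x axis and the log2 fold change of D6 minus iPSCs -dox on the y axis. The 98 higher genes are red and the 92 lower genes blue, and *Hprt*, *Rpl29*, and *Zfp42* combine a large change with a high level. For genes at 0 in 1 group, such as *Olig2* and *Ccl2*, the plotted value depends on the prior count of the fit.

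*Hprt*, the X-linked enzyme of purine salvage, separated D6 from all 16 iPSC and ESC reference libraries. It had 269 and 303 CPM in D6, 0.413 and 0.362 in MKOS iPSCs -dox, and 2.14 and 1.35 in OKMS iPSCs -dox, 0.527 to 3.07 in the iPSCs 2i, and 0 to 1.83 in the ESCs. The D6 values were thus 268-fold above the mean of the iPSCs -dox with no overlap (log2 fold change 8.40 ± 0.67 SE, FDR 1.04e-11), and the call held in all 14 alternative settings. Among the MEFs, *Hprt* was at 187 and 202 CPM in the wt MEF, 3.43 and 3.96 in the MKOS MEF, and 22.3 and 20.3 in the OKMS MEF. As background, E14Tg2a, a derivative of E14 ESCs in wide use, lacks a working *Hprt* gene. Genotypes at this locus were not analysed here.

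*Rpl29*, a protein of the large ribosomal subunit, had 1958 and 1854 CPM in D6, 172 and 264 in MKOS iPSCs -dox, and 193 and 243 in OKMS iPSCs -dox, and 90.5 to 199 in the iPSCs 2i (log2 fold change 3.13 ± 0.21 SE, FDR 7.42e-14). Both D6 libraries were far above every reference, but only 27.0% of the reads of this gene were unambiguous, so that close copies elsewhere may share them and its value is uncertain. *Olig2*, a transcription factor of the oligodendrocyte lineage, had 30.1 and 13.9 CPM in D6 and no read in any of the 16 iPSC and ESC reference libraries, at least 41.02-fold higher in D6 with a floor of 3 reads per library (FDR 0.0351). That call was lost when any 1 of the 6 libraries was left out, with FDRs of 0.103 to 0.293, and none of the 13 measured genes of the neural list, which does not hold *Olig2*, passed the test. *Mrpl33*, a protein of the mitochondrial ribosome chosen after its values were seen, had 221 and 251 CPM in D6, 58.0 and 51.0 in MKOS iPSCs -dox, and 92.2 and 66.9 in OKMS iPSCs -dox (log2 fold change 1.84 ± 0.23 SE, FDR 2.33e-06), again with no overlap. The remaining genes among the 12 with the largest rises were *Xaf1*, *Gm13580*, *Dkkl1*, *Tgfbi*, *S100a13*, *Aqp3*, *Sdc2*, *Tbx3*, and *Sfrp1*, with log2 fold changes between 2.62 and 4.20. *Sfrp1*, which encodes a secreted Wnt antagonist, had 81.5 and 93.4 CPM in D6 against 2.62 to 31.1 in the iPSCs -dox, and *Aqp3*, a water channel, had 69.3 and 96.0 CPM in D6 against 1.45 to 22.2 in the iPSCs -dox. Neither D6 library overlapped the references in these genes. The calls of *Sfrp1* and *Aqp3* held in 12 and 9 of 14 settings, and that of *Aqp3* was lost without D6 replicate 1. *Xaf1*, which binds the apoptosis inhibitor XIAP, had 21.9 and 24.8 CPM in D6 against 0.362 to 2.90 in the iPSCs -dox (FDR 0.00132), and *Tgfbi*, a secreted matrix protein, had 14.4 and 33.5 CPM in D6 against 0.309 to 4.88 in the iPSCs -dox (FDR 0.00279). *Dkkl1*, a secreted relative of the Dickkopf proteins, had 12.1 and 19.6 CPM in D6 against 0 to 4.28 in the iPSCs -dox (FDR 0.0420), and *Sdc2*, a heparan sulfate proteoglycan, had 17.2 and 19.7 CPM in D6 against 1.16 to 4.04 in the iPSCs -dox (FDR 0.00614). The call of *Dkkl1* held in 5 of 14 settings and was lost with DESeq2 and without either D6 library. Those of *Xaf1*, *Tgfbi*, and *Sdc2* held in 13, 11, and 11 of 14 settings. *S100a13*, a calcium-binding protein, had 111 and 228 CPM in D6 against 7.05 to 47.7 in the iPSCs -dox, and its call held in all 14 settings, as did that of *Gm13580*. *Aqp3*, *S100a13*, and *Gm13580* were at 29.7 to 135, 81.1 to 126, and 11.8 to 37.3 CPM in the iPSCs 2i, and none of these 3 passed the test against that reference.

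**Figure D2:**
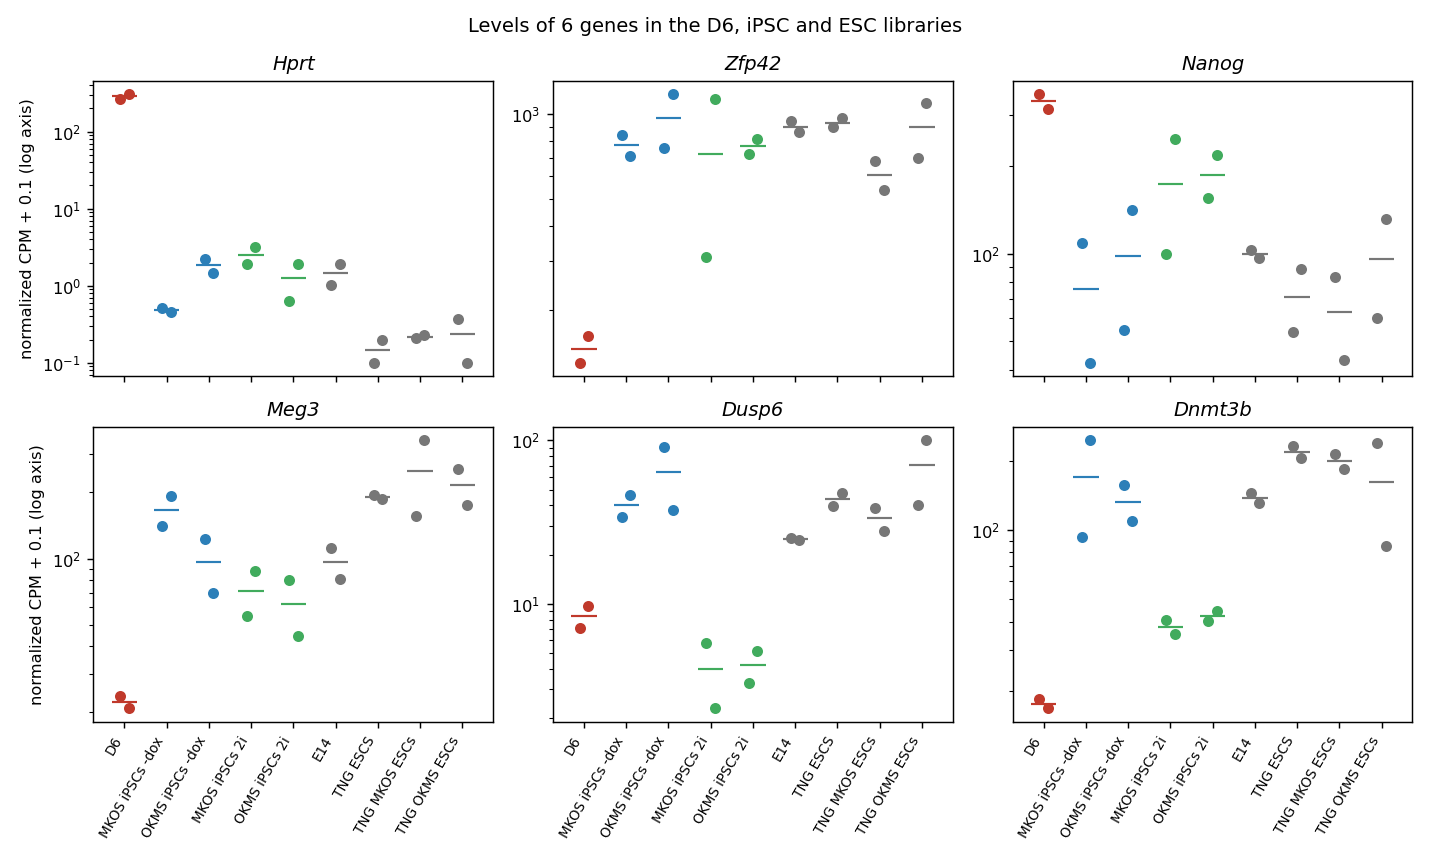
Normalized CPM plus 0.1 on a log axis for 6 genes, 1 point for each of the 2 libraries of a group and a line at the group mean, with D6 in red, iPSCs -dox in blue, iPSCs 2i in green, and ESCs in gray. *Hprt* is high in D6 alone among these libraries, *Zfp42* and *Meg3* are lowest in D6, and *Dusp6* and *Dnmt3b* in D6 lie below the iPSCs -dox.

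Of 29 genes in the list of core and naive pluripotency factors, 3 rose and 1 fell in D6 relative to the iPSCs -dox, compared with 0.627% and 0.589% of all genes tested. The median log2 fold change of the list was 0.25 against 0.01 over all genes, and 10 of its genes had both D6 libraries above all 4 references while 4 had both below, against 11.5% and 7.92% of all genes. The 3 that rose encode transcription factors of the naive network. *Tbx3* had 119 and 148 CPM in D6, 29.0 and 15.2 in MKOS iPSCs -dox, and 6.89 and 33.2 in OKMS iPSCs -dox. *Klf4* had 192 and 192 CPM in D6, 71.3 and 15.4 in MKOS iPSCs -dox, and 22.6 and 27.1 in OKMS iPSCs -dox. Both were higher in D6 than in each of the references (log2 fold change 2.66 ± 0.44 SE, FDR 3.35e-04 and log2 fold change 2.54 ± 0.37 SE, FDR 4.75e-05), and both calls held in all 14 settings. *Nanog* had 353 and 315 CPM in D6, 109 and 42.1 in MKOS iPSCs -dox, and 54.4 and 142 in OKMS iPSCs -dox (log2 fold change 1.95 ± 0.45 SE, FDR 0.0189). The lower D6 library was still above the highest reference, but the call was lost when a D6 library was left out (FDR 0.199 without D6 replicate 1 and 0.0862 without D6 replicate 2) and the reference iPSCs carry GFP in this locus, whose part in the difference was not tested. The iPSCs 2i lay below D6 in all 3, with 56.1 to 84.9 CPM for *Tbx3*, 76.4 to 99.2 for *Klf4*, and 99.9 to 248 for *Nanog*, and D6 was not called against them (FDR 0.311, 0.162, and 0.453). Since *Klf4* is also part of the cassettes, reads from a transgene cannot be told apart from those of the gene in these counts.

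*Zfp42*, also called *Rex1* and used as a marker of naive cells, fell. It had 129.9 and 162 CPM in D6, 840.1 and 708 in MKOS iPSCs -dox, and 759.8 and 1174 in OKMS iPSCs -dox, 309.7 to 1131 in the iPSCs 2i, and 536 to 1097 in the ESCs. D6 was lower than each of these 16 libraries, 5.96-fold below the mean of the iPSCs -dox (log2 fold change -2.57 ± 0.49 SE, FDR 0.00277). It was called against the iPSCs 2i as well (log2 fold change -2.35 ± 0.49 SE, FDR 0.00529) and against the ESCs (log2 fold change -2.49 ± 0.47 SE, FDR 5.38e-04). Of its reads, 64.9% were unambiguous. Leaving out a D6 library ended the call against the iPSCs -dox (FDR 0.135 without D6 replicate 1 and 0.0576 without D6 replicate 2). Other members of the network gave no call. *Esrrb*, an orphan nuclear receptor, had 237 and 187 CPM in D6, 175 and 49.9 in MKOS iPSCs -dox, and 65.6 and 116 in OKMS iPSCs -dox (FDR 0.170), and *Tfcp2l1* was just outside the threshold with 178 and 192 CPM in D6 against 27.1 to 85.9 in the iPSCs -dox (FDR 0.0533). *Prdm14* had 24.3 and 26.6 CPM in D6 against 0.951 to 11.8 in the iPSCs -dox (FDR 0.346), *Klf2* had 106 and 109 CPM in D6 against 77.5 to 166 in the iPSCs -dox (FDR 1.000), and *Dppa3*, a maternal factor that protects methylation marks, had 239.9 and 301 CPM in D6 against 119 to 556 in the iPSCs -dox (FDR 1.000). *Kit*, the stem cell factor receptor, *Cd9*, a tetraspanin of the cell surface, and *Fabp3*, a fatty acid carrier, were chosen after their values were seen. *Kit* had 58.6 and 71.1 CPM in D6 against 5.42 to 19.7 in the iPSCs -dox (FDR 0.00299), *Cd9* had 1331 and 1384 CPM in D6 against 263 to 499.5 in the iPSCs -dox (FDR 4.91e-04), and *Fabp3* had 1200.1 and 1720.2 CPM in D6 against 215 to 659 in the iPSCs -dox (FDR 0.0228). All 3 were higher in D6 with no overlap. The call of *Cd9* held in all 14 settings, that of *Kit* was lost without D6 replicate 1, and that of *Fabp3* was lost without either D6 library and against MKOS or OKMS iPSCs -dox alone.

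Among 21 targets and regulators of FGF-ERK signaling, *Dusp6* and *Spry4* fell in D6 relative to the iPSCs -dox and 0 rose, compared with 0.589% and 0.627% of all genes tested. The median log2 fold change of the list was -0.75, and 7 of the 21 had both D6 libraries below all 4 references while 2 had both above, against 7.92% and 11.5% of all genes. *Dusp6*, the phosphatase that acts on ERK and is itself induced by it, had 7.06 and 9.66 CPM in D6, 33.8 and 46.1 in MKOS iPSCs -dox, and 90.8 and 37.7 in OKMS iPSCs -dox. Both D6 values lay below the lowest reference (log2 fold change -2.59 ± 0.41 SE, FDR 1.57e-04), and the iPSCs 2i had 2.19 to 5.65 CPM. *Spry4*, a feedback inhibitor of receptor signaling, had 0.694 and 10.6 CPM in D6, 16.3 and 51.3 in MKOS iPSCs -dox, and 57.1 and 28.8 in OKMS iPSCs -dox. The D6 libraries differed from each other there but stayed below the references (log2 fold change -2.72 ± 0.54 SE, FDR 0.00315), while in the iPSCs 2i *Spry4* was at 0 to 0.527 CPM and D6 was higher (FDR 5.19e-05). The call against the iPSCs -dox was lost without 1 of the D6 libraries (FDR 0.206 without D6 replicate 1 and 9.42e-06 without D6 replicate 2). *Dusp4* had 1.06 and 1.27 CPM in D6 against 3.09 to 17.8 in the iPSCs -dox, *Spry2* had 9.72 and 12.5 CPM in D6 against 16.8 to 31.5 in the iPSCs -dox, and *Etv4* had 7.404 and 10.7 CPM in D6 against 8.70 to 31.8 in the iPSCs -dox, with FDRs of 0.249, 0.458, and 0.600. The immediate early gene *Egr1* did not go with them, at 14.2 and 29.5 CPM in D6 against 1.27 to 29.7 in the iPSCs -dox (FDR 0.303), and it was higher in D6 than in the iPSCs 2i (log2 fold change 3.001, FDR 0.00449).

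*Myc* had 0.578 and 3.28 CPM in D6, 8.97 and 26.2 in MKOS iPSCs -dox, and 8.56 and 15.5 in OKMS iPSCs -dox, and 0 to 1.58 in the iPSCs 2i. It was below all 4 references in both D6 libraries (log2 fold change -2.86 ± 0.59 SE, FDR 0.00513), although the call was lost without D6 replicate 1 (FDR 0.295 without D6 replicate 1 and 0.00886 without D6 replicate 2), and *Myc* is a cassette gene too. *Id1*, an inhibitor of differentiation factors that BMP induces, had 10.8 and 11.6 CPM in D6, 17.8 and 256 in MKOS iPSCs -dox, and 271 and 65.7 in OKMS iPSCs -dox (log2 fold change -3.76 ± 0.75 SE, FDR 0.00329). The references themselves spread widely for *Id1*, and its call was lost without either D6 library (FDR 0.135 without D6 replicate 1 and 0.0968 without D6 replicate 2) and without MKOS iPSCs -dox replicate 2. It was the only 1 of 16 BMP targets and Id genes to pass the test, compared with 1.22% of all genes tested. *Slc7a7*, a subunit of an amino acid transporter, had 2.66 and 5.41 CPM in D6 against 41.5 to 73.0 in the iPSCs -dox (FDR 0.00721) and 1.27 to 2.64 CPM in the iPSCs 2i. *Gm98*, now named *Myrf*, had 1.55 and 1.74 CPM in D6 against 8.08 to 23.004 in the iPSCs -dox (FDR 0.0126) and 0 to 0.724 in the iPSCs 2i. The calls of *Slc7a7* and *Gm98* held in 11 and 9 of 14 settings, and both were lost without either D6 library.

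**Figure D3:**
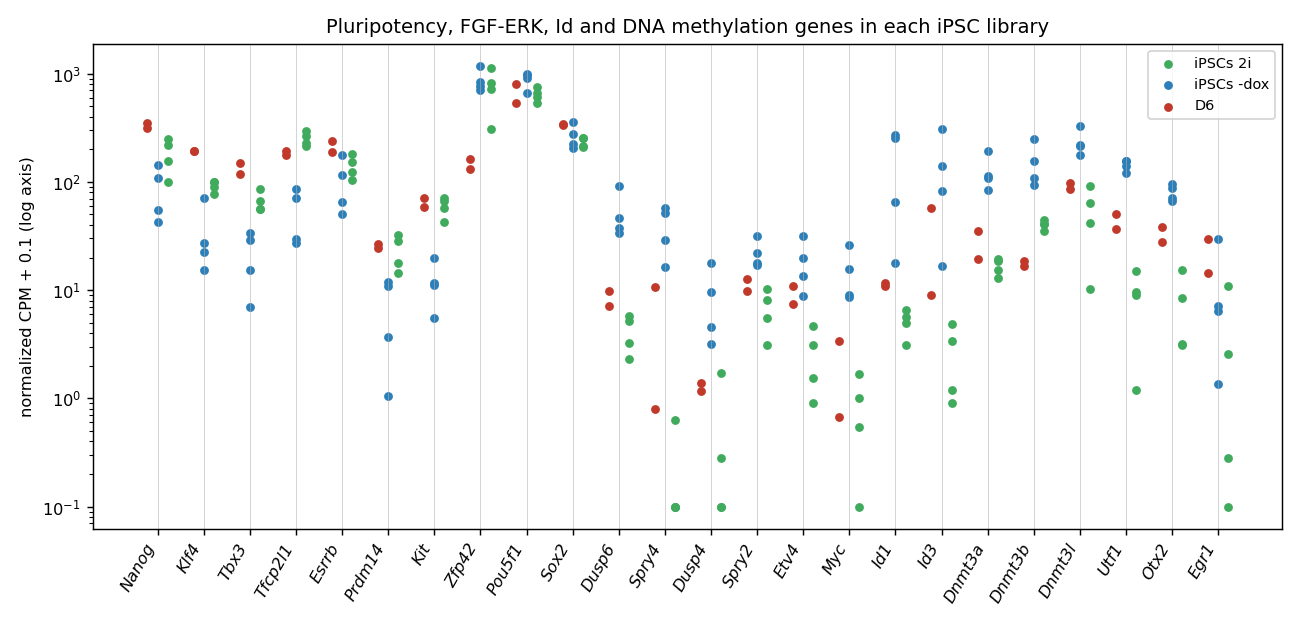
Normalized CPM plus 0.1 on a log axis for 24 genes in the 2 D6 libraries (red), 4 iPSC -dox libraries (blue), and 4 iPSC 2i libraries (green), 1 point for each library. *Nanog*, *Klf4*, and *Tbx3* are highest in D6, *Zfp42* is lowest in D6, and for *Dusp6*, *Myc*, *Id1*, and *Dnmt3a* both D6 points lie below all 4 of the iPSCs -dox.

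Both de novo DNA methyltransferases fell. *Dnmt3b* had 18.4 and 16.7 CPM in D6, 93.2 and 246 in MKOS iPSCs -dox, and 157 and 109 in OKMS iPSCs -dox, below every library of the iPSCs 2i too, where it was 35.1 to 44.3 (log2 fold change -3.10 ± 0.72 SE, FDR 0.0171). *Dnmt3a* had 19.4 and 35.4 CPM in D6, 84.3 and 193 in MKOS iPSCs -dox, and 109 and 112 in OKMS iPSCs -dox (log2 fold change -2.17 ± 0.47 SE, FDR 0.00834), and 12.7 to 19.18 in the iPSCs 2i. Neither gene overlapped the iPSCs -dox, and neither was called against the iPSCs 2i (FDR 0.489 and 0.516). Without D6 replicate 1 or 2 the calls were lost, at FDR 0.244 without D6 replicate 1 and 0.252 without D6 replicate 2 for *Dnmt3b*, and at FDR 0.355 without D6 replicate 1 and 0.0576 without D6 replicate 2 for *Dnmt3a*. Of 16 measured writers and erasers of DNA methylation, 2 fell and 0 rose, compared with 0.589% and 0.627% of all genes tested. In 5 both D6 libraries were below all 4 references and in 1 both were above, against 7.92% and 11.5% of all genes. The other 14 measured writers and erasers gave no call. Among them *Dnmt3l*, the cofactor of both enzymes, had 86.3 and 97.9 CPM in D6 against 176 to 331 in the iPSCs -dox (FDR 0.299). *Dnmt1*, the maintenance enzyme, had 90.001 and 97.8 CPM in D6 against 109 to 140.3 in the iPSCs -dox (FDR 0.516), and *Tet1*, which oxidizes methylcytosine, had 117 and 147 CPM in D6 against 114 to 261 in the iPSCs -dox (FDR 0.901). In the formative and primed list the same 2 methyltransferases were the only genes of 23 to pass, compared with 1.22% of all genes tested. *Otx2*, a factor of the primed epiblast, had 28.0 and 38.2 CPM in D6 against 66.8 to 95.8 in the iPSCs -dox (FDR 0.587).

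*Meg3* and *Rian*, maternally expressed noncoding RNAs of the *Dlk1*-*Dio3* domain on chromosome 12, were lower in D6 than in each of the 16 reference libraries. *Meg3* had 23.6 and 20.8 CPM in D6, 140.0 and 193 in MKOS iPSCs -dox, and 123 and 69.8 in OKMS iPSCs -dox. The iPSCs 2i had 44.5 to 87.6 and the ESCs 80.9 to 346, so that D6 lay outside all 3 references. The fall was 5.93-fold against the mean of the iPSCs -dox (log2 fold change -2.51 ± 0.39 SE, FDR 1.39e-04), and it passed against the iPSCs 2i (log2 fold change -1.58, FDR 0.0165) and the ESCs (log2 fold change -2.998, FDR 9.84e-07). Its transcripts remained detectable in both D6 libraries. *Rian*, which hosts small nucleolar RNAs, had 10.5 and 4.73 CPM in D6, 52.9 and 80.1 in MKOS iPSCs -dox, and 51.1 and 27.4 in OKMS iPSCs -dox, below all 4 references (log2 fold change -2.75 ± 0.44 SE, FDR 1.76e-04). It was lower than the iPSCs 2i as well, at 17.8 to 28.0 (FDR 0.0430). Its call against the iPSCs -dox held in 13 of 14 settings and was lost without D6 replicate 2. *Mirg*, the microRNA host of the domain, had 0.386 and 0.810 CPM in D6 against 3.92 to 8.32 in the iPSCs -dox (FDR 0.254), and *Dlk1*, read from the paternal allele, had at most 1.34 CPM in any of these libraries. *Dio3* and *Begain* went the other way, with means of 4.63 and 1.56 CPM in D6 and 0.886 and 0.181 in the iPSCs -dox (FDR 0.327 and 0.294), and *Dio3*, which encodes an enzyme that inactivates thyroid hormone, was higher than in the ESCs (log2 fold change 3.75, FDR 0.0231). Of 8 genes of the domain 2 fell and 0 rose, compared with 0.589% and 0.627% of all genes. In 3 both D6 libraries were below all 4 references and in 2 both were above, against 7.92% and 11.5% of all genes. The list had a median log2 fold change of -2.63, or -1.70 with genes that had no read in 1 group set to their bound.

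Among 47 other imprinted genes tested, 2 fell and 0 rose, compared with 0.589% and 0.627% of all genes, and 13 had both D6 libraries below all 4 references while 5 had both above, against 7.92% and 11.5%. *H19*, a maternally expressed noncoding RNA, had 1.85 and 1.16 CPM in D6, 25.8 and 11.7 in MKOS iPSCs -dox, and 96.5 and 59.1 in OKMS iPSCs -dox (log2 fold change -4.68 ± 0.69 SE, FDR 6.25e-05). The D6 libraries were below all 4 references, but 1.01 to 13.2 CPM in the iPSCs 2i and 0.114 to 9.81 in the ESCs took in the D6 values. *Peg10*, a paternally expressed gene derived from a retrotransposon, had 6.36 and 8.21 CPM in D6, 61.3 and 66.5 in MKOS iPSCs -dox, and 102 and 46.2 in OKMS iPSCs -dox (log2 fold change -3.23 ± 0.51 SE, FDR 1.57e-04), and 8.78 to 15.5 in the iPSCs 2i. Both calls held in all 14 settings. Parental alleles were not resolved in these counts.

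Fibroblast genes differed in direction between D6 and the iPSCs -dox. *Ccl2* and *Cxcl1*, which encode chemokines, had no read in either D6 library and 3.07 to 37.6 and 0.966 to 43.3 CPM in the iPSCs -dox, at least 45.8-fold and 44.7-fold lower in D6 with a floor of 3 reads per library (FDR 0.00105 and 0.0165). *Tagln*, a smooth muscle protein, had 0 and 0.193 CPM in D6 against 5.36 to 55.3 in the iPSCs -dox (FDR 0.0339). *S100a4*, a calcium-binding protein of fibroblasts, had 15.4 and 24.6 CPM in D6 against 29.6 to 114 in the iPSCs -dox (FDR 0.0391). All 4 calls were lost without either D6 library, those of *Ccl2* and *Cxcl1* without D6 replicate 1 at FDRs of 0.0554 and 0.243. *Ccl2* and *Cxcl1* were named for their size of change and are not in the fibroblast list. Of 25 genes in that list *Tagln* and *S100a4* fell and 0 rose, compared with 0.589% and 0.627% of all genes, with a median log2 fold change of -0.32, or -0.52 with genes without a read in 1 group at their bound. *Col1a1*, the main collagen of fibroblasts, was low in all, with 0.869 and 1.04 CPM in D6 against 0.904 to 6.66 in the iPSCs -dox (FDR 0.639) and up to 828 in MEFs. Other members had higher estimates in D6, such as *Postn*, *Col5a1*, and *Pdgfrb* with log2 fold changes of 2.23, 1.40, and 1.39 (FDR 0.396, 0.320, and 0.491), and the summed level of the 8 markers given above had a median of 9.95 CPM in the iPSCs -dox, below both D6 libraries.

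*Dab2*, an adaptor protein of the primitive endoderm, had 0.347 and 0.193 CPM in D6, 1.96 and 38.7 in MKOS iPSCs -dox, and 2.14 and 5.02 in OKMS iPSCs -dox (FDR 0.0334). It was high in 1 reference library, MKOS iPSCs -dox replicate 2, whose 5 primitive endoderm markers summed to 49.7 CPM against 2.80 and 3.70 in D6, and without that library the FDR of *Dab2* was 0.274. In the full list of 18 primitive endoderm genes *Dab2* alone fell and 0 rose, compared with 0.589% and 0.627% of all genes. The list summed the other way, to 549 and 598 CPM in D6 against 183 to 549 in the iPSCs -dox and 149 to 254 in the ESCs. Most of the sum in D6 was *Sparc*, with a mean of 360 CPM in D6 and 149 in the iPSCs -dox, which did not pass (FDR 0.217). The members *Sparc*, *Col4a1*, *Col4a2*, *Lamb1*, and *Srgn* of this list, most of which encode matrix or basement membrane proteins, were higher in D6 than in the ESCs (FDR at most 0.05) and were not called against the iPSCs -dox. *Gata6*, which specifies that lineage, had 0.463 and 0.483 CPM in D6 against 0.966 to 4.16 in the iPSCs -dox (FDR 0.737), and *Cdx2*, the trophoblast factor, had no read in the iPSCs -dox and at most 0.578 CPM in D6. No gene of the trophoblast, two-cell-like, germline, interferon, Nodal and TGF-beta, or mesoderm and endoderm lists passed against the iPSCs -dox, and neither did any of *Sp3* and its neighbors. In the lists of 21 genes of the LIF-STAT3 pathway and 20 Wnt targets the called genes were *Klf4* and *Myc*, which are given above, and the medians were 0.00 and 0.45. In the first list 1 rose and 1 fell and in the second 0 rose and 1 fell, compared with 0.627% and 0.589% of all genes. Both D6 libraries were above all 4 references for 3 and 2 genes and below them for 3 and 2, against 11.5% and 7.92% of all genes. Further genes among the 12 with the largest falls were *2610528J11Rik*, *Gm15545*, *Bnipl*, and *Tsx*. *Gm15545* had 0.231 and 0.676 CPM in D6 against 8.32 to 14.03 in the iPSCs -dox (FDR 8.77e-04) and was as high in the iPSCs 2i, at 7.02 to 16.2 CPM. *2610528J11Rik* had 0.116 and 0.580 CPM in D6 against 3.29 to 19.02 in the iPSCs -dox, and *Bnipl* had 0.578 and 0.966 CPM in D6 against 2.71 to 36.6 in the iPSCs -dox. The calls of *Gm15545*, *2610528J11Rik*, and *Bnipl* held in 13, 10, and 7 of 14 settings. Those of *2610528J11Rik* and *Bnipl* were lost without either D6 library. *Aen*, a nuclease that p53 induces, was the only 1 of 21 p53 targets and cell-cycle inhibitors to pass, compared with 1.22% of all genes tested. It had 33.9 and 35.3 CPM in D6 against 52.2 to 98.2 in the iPSCs -dox (FDR 0.0217). Its call was lost without either D6 library and against MKOS or OKMS iPSCs -dox alone.

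Genes of oxidative phosphorylation made up 10 of the 98 higher genes, from a list that held 76 of the 15622 genes tested. The list of 77 nuclear genes of oxidative phosphorylation was chosen by symbol after the values were seen. Of its 76 tested members, 10 rose and 0 fell, compared with 0.627% and 0.589% of all genes tested. In 35 both D6 libraries were above all 4 references and in 0 both were below, against 11.5% and 7.92% of all genes. The median log2 fold change was 0.34, against 0.01 over all genes. *Ndufa13*, a subunit of complex I, had 643 and 691 CPM in D6, 281 and 284 in MKOS iPSCs -dox, and 406 and 351 in OKMS iPSCs -dox (log2 fold change 1.03 ± 0.18 SE, FDR 9.48e-04). *Cox7a2* of complex IV had 2082 and 2433 CPM in D6, 646 and 1077 in MKOS iPSCs -dox, and 1375 and 1363 in OKMS iPSCs -dox (log2 fold change 1.06 ± 0.18 SE, FDR 8.76e-04), and *Uqcr10* of complex III had 1493 and 1882 CPM in D6, 644 and 811 in MKOS iPSCs -dox, and 1343 and 1002 in OKMS iPSCs -dox (log2 fold change 0.87 ± 0.17 SE, FDR 0.00279). D6 was above the references in each. *Cox5a* had 261 and 303 CPM in D6 against 106 to 174 in the iPSCs -dox (FDR 0.00936). Against OKMS iPSCs -dox alone, the calls of *Ndufa13*, *Cox7a2*, *Uqcr10*, and *Cox5a* were all lost. Those of *Cox7a2*, *Uqcr10*, and *Cox5a* were also lost in the fit to the iPSC libraries alone. Of the 10 genes, *Uqcr10* lies on chromosome 11 and *Ndufa9* in the raised stretch of chromosome 6, both of which are described below. Of 27 glycolysis genes 1 rose and 1 fell, compared with 0.627% and 0.589% of all genes. In 7 both D6 libraries were below all 4 references and in 2 both were above, against 7.92% and 11.5% of all genes. The list had a median log2 fold change of -0.56. *Slc2a3*, a glucose transporter, had 575 and 689 CPM in D6, 365 and 199.9 in MKOS iPSCs -dox, and 151 and 393 in OKMS iPSCs -dox (log2 fold change 1.19 ± 0.27 SE, FDR 0.0137), and *Pdk1*, which restrains pyruvate entry into the citric acid cycle, had 20.5 and 25.6 CPM in D6, 112 and 68.7 in MKOS iPSCs -dox, and 81.8 and 48.3 in OKMS iPSCs -dox (log2 fold change -1.73 ± 0.43 SE, FDR 0.0254). Neither gene overlapped the iPSCs -dox, and both calls were lost when a D6 library was left out.

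The lower genes were not spread evenly over the genome. On chromosome 6, 17 of the 92 lower genes lay between 60 and 90 Mb, a stretch that held 1.04% of the genes tested, and 8 of the 98 higher genes lay between 100 and 130 Mb, which held 1.33%. These stretches were chosen after the values were seen, positions are those of GRCm38, and no test was made. Over 68 genes of at least 10 CPM in the lower stretch, the median log2 difference from the iPSCs -dox was -0.84 in both D6 libraries, or 0.559-fold. The other 16 iPSC and ESC libraries lay between -0.38 and 0.10. In this stretch, 63 of the 68 genes had a lower estimate in D6 and 47 had both D6 libraries below all 4 references, compared with 11.1% of the 6972 genes of that level over the genome. Over 90 genes in the raised stretch the medians were 0.47 and 0.52 in D6, or 1.41-fold on average, against -0.13 to 0.26 elsewhere. There 77 of 90 genes had a higher estimate and 40 had both D6 libraries above the references, compared with 11.4% over the genome.

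The rest of chromosome 6 showed no such shift, with D6 medians of -0.02 and 0.09 over the 88 genes before 60 Mb and -0.09 and 0.04 over the 44 after 130 Mb. The 17 genes between the stretches had -0.24 and -0.18, within the -0.32 to 0.14 of the other libraries. Of 215 windows of 10 Mb with at least 10 genes across the genome, 4 had both D6 libraries outside all 16 others with a mean shift over 0.3, and all 4 were on chromosome 6, from 70 to 90 Mb and from 110 to 130 Mb. The medians stayed between -0.87 and -0.73 in the lower stretch and between 0.44 and 0.56 in the raised one when any D6 or iPSC -dox library was left out or when the iPSCs 2i or the ESCs served as reference. DNA was not analysed here, and whether its copy number differs in these stretches was not tested.

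The lower stretch holds genes of general cell functions. *Serbp1*, which binds ribosomes and mRNA, had 336 and 361 CPM in D6, 750.5 and 602 in MKOS iPSCs -dox, and 658 and 649.7 in OKMS iPSCs -dox (log2 fold change -0.93 ± 0.17 SE, FDR 0.00120). *Ruvbl1*, an ATPase of chromatin remodeling complexes, had 76.1 and 67.8 CPM in D6, 174 and 200.3 in MKOS iPSCs -dox, and 202 and 207 in OKMS iPSCs -dox (log2 fold change -1.44 ± 0.26 SE, FDR 0.00120). *Cct7*, a subunit of the chaperonin that folds actin and tubulin, had 328 and 373 CPM in D6 against 546 to 688 in the iPSCs -dox (FDR 0.0287). All 3 were lower in D6 with no overlap. *Mad2l1* of the spindle checkpoint had 78.8 and 89.3 CPM in D6 against 123 to 219 in the iPSCs -dox (FDR 0.0228), *Cnbp*, a zinc finger protein that binds nucleic acids, had 573 and 638 CPM in D6 against 1025 to 1270.4 in the iPSCs -dox (FDR 0.0232), and *Mrpl19* of the mitochondrial ribosome had 23.1 and 23.2 CPM in D6 against 63.2 to 77.9 in the iPSCs -dox (FDR 8.25e-04). The calls of these 6 genes were each lost without either D6 library, with FDRs of up to 0.471. The raised stretch holds *Nanog*, *Slc2a3*, *Cd9*, *Grcc10*, *Ndufa9*, *Mical3*, *Tmcc1*, and *Ppp4r2* among the called genes, and *Dppa3* and *Gdf3* among those not called. The log2 fold changes of *Nanog* (1.95), *Cd9* (1.89), and *Grcc10* (1.59) were above the median of the stretch, while that of *Gdf3*, a ligand of the TGF-beta family, was 1.198 (FDR 0.325) and that of *Dppa3* was -0.09.

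**Figure D4:**
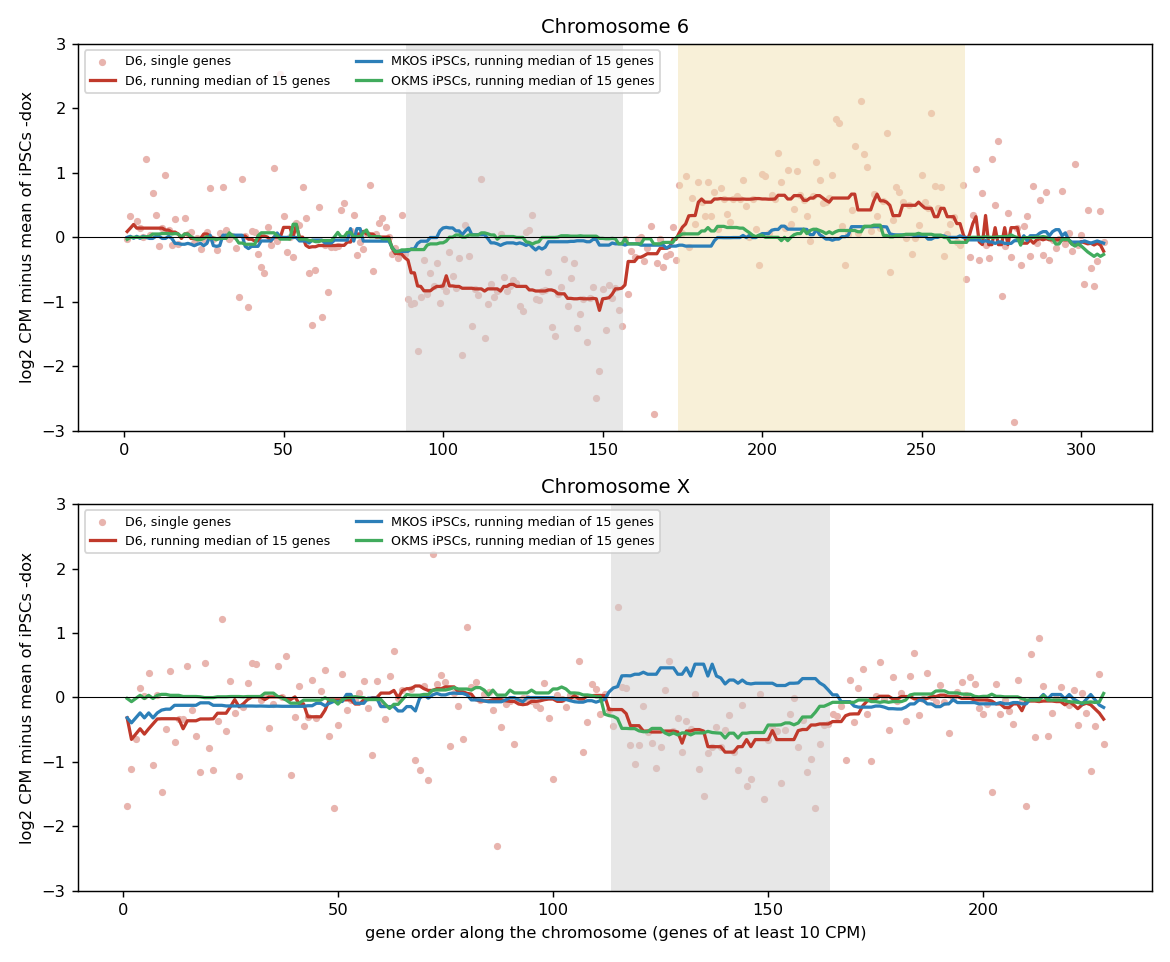
The difference of log2 CPM from the mean of the iPSCs -dox is plotted for genes of at least 10 CPM in their order along chromosome 6 (top) and chromosome X (bottom). Pale points are single genes in D6 and lines are running medians of 15 genes for D6 (red), the 4 MKOS iPSC libraries (blue), and the 4 OKMS iPSC libraries (green), with the stretches described in the text shaded. Points beyond 3 on either side are not drawn. On chromosome 6 D6 alone departs from 0, to about -0.84 and 0.50, whereas on chromosome X the MKOS iPSCs depart upward and D6 runs with the OKMS iPSCs.

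On the X chromosome, 6 of the 92 lower genes lay between 90 and 120 Mb, a stretch that held 0.743% of the genes tested. There the references differed from each other. The median over 51 genes was -0.54 and -0.53 in D6, -0.59 to -0.45 in the 4 OKMS iPSC libraries of both conditions, and -0.52 to -0.25 in the ESCs, but 0.17 to 0.50 in the 4 MKOS iPSC libraries. D6 was therefore at the level of the OKMS iPSCs and the ESCs, and the MKOS iPSCs were 1.90-fold above D6. The called genes *Rlim*, *Tsx*, *Snx12*, *Eif2s3x*, *2610029G23Rik*, and *Sh3bgrl* each passed against MKOS iPSCs -dox alone and none passed against OKMS iPSCs -dox alone. For *Rlim*, a ubiquitin ligase that activates *Xist*, which had 31.3 and 32.6 CPM in D6, 145 and 131 in MKOS iPSCs -dox, and 85.8 and 50.4 in OKMS iPSCs -dox (log2 fold change -1.60 ± 0.34 SE, FDR 0.00748), the log2 fold change was -2.11 with FDR 0.00157 in the first case and -1.09 with FDR 0.201 in the second. For *Eif2s3x*, a translation initiation factor, these values were -1.55 with FDR 1.09e-04 and -0.54 with FDR 0.378. *Tsx*, a gene of the X inactivation center, had 1.16 and 2.61 CPM in D6, 10.2 and 63.6 in MKOS iPSCs -dox, and 43.5 and 7.54 in OKMS iPSCs -dox (FDR 0.0228), with a wide spread within each reference.

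On chromosome 11 the typical gene was higher in D6 by a small amount. The median over its 1252 tested genes was 0.26 and 0.31 in the D6 libraries (log2 CPM minus the mean of the iPSCs -dox), and 0 to 0.07 in the 8 iPSC reference libraries. The mean difference from the iPSCs -dox was 0.27, while the other 19 chromosomes gave -0.02 to 0.08 in D6. Shifts of whole chromosomes were also seen in ESC libraries. The medians of chromosome 14 were -0.21 and -0.26 in E14 and -0.26 in each TNG ESCS library. Those of chromosome 15 were 0.16 and 0.15 in E14. An exact permutation test of 2 libraries against 4 cannot go below p = 0.0667, which is the value it gave. The exact permutation test of 2 libraries against all 8 iPSC libraries gave p = 0.0222 (two-sided, 0.111 after adjustment over 20 chromosomes). That is the smallest value possible for that design. Every value is a difference from the mean of the iPSCs -dox, which draws those libraries, but not D6, toward 0. The libraries are therefore not exchangeable in this test, and no conclusion is drawn from its p-values. Chromosomes 12, 13, and 16 gave the same p-values with smaller shifts of 0.07, 0.08, and 0.05, so the test does not single out chromosome 11, which differs by the size of the shift. The shift was 0.21 over genes of at least 10 CPM and 0.19 over those of at least 50 CPM. Over all tested genes many reference medians were exactly 0, which narrows their spread. Over the 618 genes of at least 10 CPM the medians were 0.209 and 0.255 in D6. The 8 iPSC reference libraries then lay between -0.074 and 0.065, and the ESCs between -0.010 and 0.126. Of the 98 higher genes 16 were on chromosome 11, which held 8.01% of the genes tested, and 1 lower gene was. They include *Uqcr10*, *Xaf1*, *Rdm1*, *Nsf*, *Calcoco2*, and *Wsb1*, with log2 fold changes of 0.87, 4.20, 1.54, 1.36, 2.61, and 1.11. Its 4 most abundant genes did not pass: *Ppia* had 0.24 (FDR 0.8287), *Rpl23* 0.55 (FDR 0.212), *Npm1* -0.17 (FDR 0.910), and *Rpl23a* 0.48 (FDR 0.372) as log2 fold changes.

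**Figure D5:**
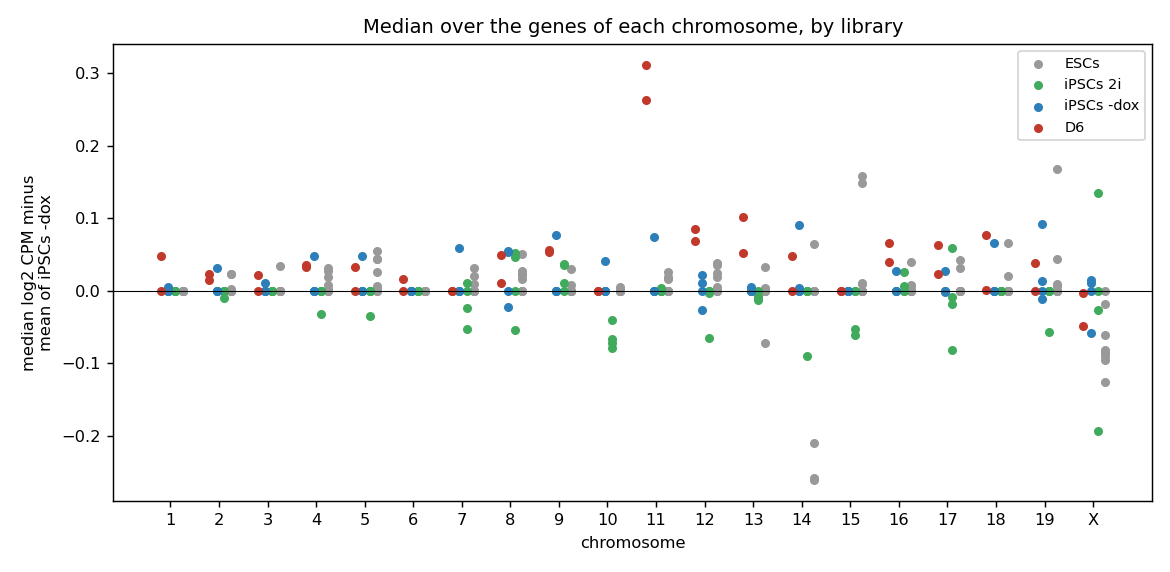
For each library, the median over the tested genes of a chromosome of log2 CPM minus the mean of the 4 iPSC -dox libraries, with D6 in red, iPSCs -dox in blue, iPSCs 2i in green, and ESCs in gray. The D6 points stand at 0.26 and 0.31 on chromosome 11, above all other libraries, and at 0 and 0.02 on chromosome 6, whose stretches are shown in the plot by gene order.

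Against the iPSCs 2i, 115 genes were higher and 79 lower in D6 (0.736% and 0.506% of those tested, 1.24% together), and the total was 37 and 43 without D6 replicate 1 or 2. The genes that separated D6 from these libraries include some of those above: *Hprt* (log2 fold change 7.39), *Rpl29* (3.54), *Mrpl33* (2.01), *Grcc10* (1.22), *Zfp42* (-2.35), and *Meg3* (-1.58) passed here too. *Utf1*, a chromatin protein that 2i lowers, had 36.9 and 50.2 CPM in D6 against 119 to 155 in the iPSCs -dox and 1.09 to 14.8 in the iPSCs 2i, so that D6 lay between the references and was higher than the latter (FDR 0.00455). *Id3*, a BMP target, was higher than in the iPSCs 2i too, with 8.91 and 57.4 CPM in D6 against 16.7 to 310.5 in the iPSCs -dox and 0.808 to 4.75 in the iPSCs 2i (FDR 0.00256). Over all genes 12.6% lay above all 4 iPSC 2i libraries in both D6 libraries and 7.92% below them. In the list of glycolysis genes 4 of 27 were lower in D6 than in the iPSCs 2i and 0 higher, against 0.506% lower over all genes. *Gpi1*, *Hk2*, *Pgk1*, and *Pgam1* encode enzymes of the pathway, and their log2 fold changes were -1.45, -1.27, -1.30, and -0.80 with FDRs of 0.00455, 0.00776, 0.00776, and 0.0333. *Hk2* lies in the lower stretch of chromosome 6, and *Pgk1* in the stretch of the X chromosome in which the MKOS iPSCs are raised.

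Against the 8 ESC libraries, 805 genes were higher and 325 lower in D6 (5.15% and 2.08%, 7.23% together), with totals of 305 and 411 when D6 replicate 1 or 2 was left out. *Tbx3* (log2 fold change 3.48), *Klf4* (2.34), *Nanog* (2.04), and *Tfcp2l1* (1.78) were higher than in the ESCs, and *Zfp42*, *Meg3*, *Rian*, *Peg10*, *Dusp6*, *Spry4*, *Myc*, *Dnmt3a*, and *Dnmt3b* were lower, each with an FDR of at most 0.05. Over all genes 10.5% had both D6 libraries above all 8 ESC libraries and 6.63% had both below. Of the 76 oxidative phosphorylation genes, 33 were higher and 0 lower, compared with 5.15% higher over all genes. The comparison has 4 times as many reference libraries as D6 libraries, and its count is not comparable with those against 4 libraries.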

How the data were processed

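RNA from 48 libraries of 20 conditions was sequenced by STRT, and D6, iPSC, and ESC libraries were taken from their labels. The authors deposited raw read counts per transcript. Per the submitters' notes reads were aligned with Bowtie 0.12.7 to mm10, while the methods name mm9. Of 20684 symbols, 99.4% lay within 5000 bases of their GRCm38 position, so coordinates are GRCm38. Multimapping reads are included in the deposited counts. The 132 Y-linked transcripts were left out. After edgeR's default filter, a quasi-likelihood model with 1 coefficient per condition was fitted to all 48 libraries (edgeR 4.0.16, R 4.3.3, TMM). The threshold for a call was a false discovery rate (FDR, Benjamini-Hochberg) of 0.05. Distances used DESeq2 1.42.0 variance-stabilized counts. Promoters came from RefSeq tables for GRCm38.p6.

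A read floor of 3 per library was 0.263 to 0.311 CPM in D6 and 0.311 to 0.619 in the iPSCs -dox, and covers counting error only. Molecular identifiers are not given in the sources used here. On simulated counts of 15622 genes with the common dispersion of 0.217, the test called 0% of 100 genes changed 2-fold and 26% of 100 changed 4-fold in D6 against the iPSCs -dox, with 4 false calls among 30. Every simulated gene had this dispersion, so the rates need not hold for genes whose libraries vary less. The members and gene lists were chosen with earlier results of these data known. Genes were named by a rule: up to 12 in each direction with the largest change among called genes of at least 10 CPM without overlap, up to 4 called genes of each list, 17 fixed genes, and the 4 most abundant genes of a chromosome whose median stood apart. All others were named after their values were seen. Chromosome medians took the median over genes of log2 CPM (prior count 1) minus the mean of the iPSCs -dox. Replicates of a group were not near-identical (chi-square per degree of freedom 24.1 to 37.3). The labels tie replicate numbers to no shared culture or batch. Correlations of same-numbered deviations were -0.01 to 0.04 over the 3 pairs of groups among D6 and the iPSCs -dox, and -0.16 to 0.14 over all 36 pairs of groups of iPSCs and ESCs, 4 of them over 0.1, so the numbers were not taken to pair libraries. Alternatives were DESeq2's Wald test, its size factors, no filter, fits to the compared libraries alone, a replicate block, other references, and each library left out.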

Additional observations from a re-analysis of the deposited data

Results flagged for a closer look

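Of 110 tests for a library far from the other 3 of its group, made over the named genes in the iPSCs -dox and the iPSCs 2i, 7 found one, and chance alone gives about 1 in 20. In the iPSCs -dox, *Sp3* was at 8.32 CPM in OKMS replicate 1 and at 23.8 to 28.1 in the others. In the iPSCs 2i, *Rpl29* was at 90.5 CPM in MKOS replicate 1 and at 185 to 199 in the others, and *Gata6* and *Dab2* were at 5.65 and 1.01 CPM in that library and at 0 elsewhere. Also there, *Spry4* and *Dlk1* were both at 0.527 CPM in OKMS replicate 1, and *Gm98* at 0.724 CPM in OKMS replicate 2, with 0 in the other 3 libraries. Where the other 3 libraries are at 0, any read gives a flag, so the rate of 1 in 20 does not apply. This holds for *Gata6*, *Dab2*, *Spry4*, *Dlk1*, and *Gm98*. The values of *Spry4* and *Dlk1* were at about the floor of 3 reads, 0.529 CPM in that library. Each group also pools MKOS and OKMS iPSCs.

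The stretch of the X chromosome between 90 and 120 Mb was 1.89-fold higher in MKOS than in OKMS iPSCs, so that the difference of D6 from MKOS iPSCs and from OKMS iPSCs was not the same. All 4 MKOS libraries lay above 0 and all 4 OKMS libraries below it, relative to the mean of the iPSCs -dox. The difference was noticed in the data and was not tested.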

How the results depend on the processing

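With no filter on low counts the calls were 505 against the iPSCs -dox, 519 against the iPSCs 2i, and 128 between MKOS and OKMS iPSCs, and with DESeq2's Wald test 377, 393, and 32. Fits to the iPSC libraries alone gave 84 and 113 for the first 2 comparisons, and OKMS iPSCs -dox alone as reference gave 94. Leaving out each library gave 27 to 192, 37 to 149, 305 to 1065, and 0 to 20 calls for the iPSCs -dox, the iPSCs 2i, the ESCs, and MKOS against OKMS. A lone remaining library was assumed to vary like the other groups. The replicate block, whose numbers were not taken to pair the libraries, gave 230, 248, 1254, and 0 calls. Outside the stretches of chromosomes 6 and X, a count chosen after seeing the data, 159 calls against the iPSCs -dox remained, and 142 outside chromosome 11 as well. Of the 40 named genes called against the iPSCs -dox, 13 and 18 kept the call without D6 replicate 1 or 2, and 40 kept it with DESeq2's size factors. Against all 8 iPSC libraries *Spry4* and *Gm98* reversed, to log2 fold changes of 1.81 and 0.54, as they are lower in the iPSCs 2i than in D6. The chromosome 11 shift was 0.21 and 0.19 over genes of at least 10 and 50 CPM, and 0.24 to 0.30 with each library left out. The ratio of the D6 distance to the MKOS-OKMS distance was 1.06, and 0.916 to 1.21 with each library left out. The 2 D6 libraries and 4 references limit what can be called. In simulated data, where every gene had the common dispersion of 0.217, 2-fold changes were not recovered. In the real comparison some changes under 2-fold were called, such as that of *Uqcr10* (log2 fold change 0.87).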

Other observations

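Several genes outside the groups above separated D6 from the iPSCs 2i. *Mt3*, a metallothionein, had 49.9 and 33.0 CPM in D6, 1.65 to 5.42 in the iPSCs -dox (FDR 0.0597), and 1.09 to 2.81 in the iPSCs 2i (log2 fold change 4.30, FDR 0.0215). It was the only 1 of 22 metallothioneins and stress genes to pass against the iPSCs 2i, compared with 1.24% of all genes tested. *Peg3*, a paternally expressed zinc finger gene, had 21.6 and 38.5 CPM in D6 against 6.18 to 26.9 in the iPSCs -dox and 3.29 to 8.14 in the iPSCs 2i (FDR 0.0165). *H13*, another imprinted gene, had 1.504 and 5.31 CPM in D6 against 8.56 to 14.5 in the iPSCs -dox and 12.1 to 14.9 in the iPSCs 2i, and fell relative to the latter (FDR 0.0296). *Pim3*, a kinase that STAT3 induces, and *Bst2*, an interferon-stimulated antiviral protein, were at 98.9 and 83.0 and at 67.0 and 89.9 CPM in D6, compared with 60.01 to 89.6 and 37.103 to 243 in the iPSCs -dox, and above the 23.2 to 38.8 and 14.7 to 25.4 of the iPSCs 2i (FDR 4.72e-04 and 0.00455). *Mkrn1*, a ubiquitin ligase gene on chromosome 6 outside both stretches, had 176 and 221 CPM in D6 against 348 to 648 in the iPSCs -dox (FDR 0.00315) and 125 to 342 in the iPSCs 2i.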
